A study of Mus musculus with 4 samples.

Results

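A set of 10 genes that earlier papers reported as targets of the microRNA miR-203, and whose products act in signalling, adhesion, nuclear transport or transcription, was followed in mouse skin cells a day after miR-203 was switched on. The members are Lasp1, Raph1, Abl1, Src, Akt2, Ran, Socs3, Birc5, Zfp281 and Dlx5. They were taken as every probe set annotated to exactly 1 gene with one of these symbols, which gave 33 probe sets of the 34945 single-gene probe sets on the array, or 10 of 18193 genes.

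The induced group held 2 arrays from FVB mouse pups at postnatal day 4 that carried K14-rtTA, TRE-miR-203 and K14-H2BGFP, and the control group held 2 arrays from littermates with TRE-miR-203 and K14-H2BGFP and without the K14-rtTA driver. Skin was taken 24 h after a doxycycline injection, and the cells were sorted before RNA extraction. The labels call the controls wild type and uninduced, and do not state the sorting gate. The keratin 14 promoter is active in basal epidermal cells and the outer root sheath of the hair follicle, so cells outside these layers need not carry the activator. The groups differed in rtTA as well as in miR-203, and these cannot be told apart. Nothing in the labels says whether an array held 1 pup or several, and p-values measure the spread between these arrays only.

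miR-203 is a microRNA of stratified epithelia, made as cells leave the basal layer, where it is known to limit proliferation. A microRNA guides an Argonaute protein to messenger RNAs that pair with its seed, usually in the 3' untranslated region, and the bound messenger is translated less and often degraded. An array measures only the second of these outcomes. The sequences below are the arms that the induced transgene is named for, shown because the seed is what a target must match. They come from the RefSeq annotation of GRCm38.p6, on the plus strand, with bases 2 to 8 in capitals in each arm and the 3p arm in capitals in the hairpin.
mmu-miR-203-3p, chr12:112130927-112130948: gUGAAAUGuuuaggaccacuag
mmu-miR-203-5p, chr12:112130889-112130910: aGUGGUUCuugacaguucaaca
Mir203 hairpin, chr12:112130880-112130955: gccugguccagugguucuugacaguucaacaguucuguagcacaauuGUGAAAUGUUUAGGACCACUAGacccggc
A site for the 3p arm reads CATTTCA in a messenger written as DNA. No other of the 1679 named mature mouse microRNAs in the table had the 3p arm's bases 2 to 8. Untranslated regions of the members were not analysed here, so which members hold such a site in these transcripts was not examined.

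The 4 arrays had medians of 4.78 and 4.76 (induced) and 4.74 and 4.79 (controls) on the log2 scale of the RMA values, and Pearson's r over the 27022 probe sets tested was 0.994 within the induced group, 0.995 within the controls and 0.991 to 0.993 between groups. Induced replicate 1 stood apart in sex-linked transcripts: the Y-linked gene Eif2s3y had a log2 value of 9.38 there, against 2.72 in induced replicate 2 and 2.82 and 2.52 in the controls, and Xist had 5.86 against 11.2 in induced replicate 2 and 10.6 and 10.8 in the controls. Several results below are also given without this array. All 6 basal keratinocyte markers (Krt5, Krt14, Krt15, Itga6, Itgb4, Col17a1) lay above the filter level described below. All 5 suprabasal, 7 hair follicle and 6 melanocyte markers did too, so reaching that level does not tell these cell types apart. The basal markers had mean log2 values of 11.1 and 11.1 in induced arrays and 11.3 and 11.3 in controls. In 5 of these 6 the induced pair lay below the control pair, against 19.3% of all genes. The induced pair lay above the control pair in 20.1% of all genes. All 7 hair follicle markers were higher in both induced arrays (means of 10.4 and 10.5, against 9.48 and 9.85 in controls). Their summed linear signal was 23333 and 26047 in induced arrays, against 12816 and 16197 in controls. Suprabasal markers had means of 13.8 and 13.7 in induced arrays and 13.8 and 13.8 in controls, with the induced pair below the control pair in 4 of 5. Melanocyte markers had 8.93 and 9.50, against 9.00 and 9.05 in controls. All 5 immune markers reached the filter level, with means of 7.15 and 6.79 in induced arrays and 7.17 and 6.97 in controls. Of 3 red blood cell markers on the array 2 reached it, both higher in both induced arrays (means of 5.19 and 5.10, against 4.72 and 4.73 in controls), and of 4 skeletal muscle markers 2 did (5.41 and 5.21, against 5.36 and 5.37). Of the fibroblast and endothelial markers 3 of 6 and 1 of 4 reached the filter level, with Col1a1, Lum, Pdgfra, Pecam1, Cdh5 and Tek below it. What part the cell mixture has in any result below was not tested, and in sorted cells measured in bulk fewer cells of a type and less RNA per cell cannot be told apart.

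Of the 33 probe sets, 30 had a mean log2 value at or above 4.17, the 40th percentile of all probe sets, and were tested; 2 probe sets of Abl1 and 1 of Ran lay below it. In limma 0 of the 30 passed a Benjamini-Hochberg adjusted p of 0.05 over all 27022 probe sets, as did 0% of the whole array (lowest adjusted p 0.158, reached by a Lasp1 probe set among others). At an unadjusted p under 0.05 there were 10 member probe sets, all lower in the induced arrays, where 10.1% of all probe sets passed in either direction and 4.69% in the lower one. Of these 10, 6 measured Lasp1 and 4 were among the 21 tested probe sets of the other genes (2 of Ran, 1 of Socs3 and 1 of Zfp281). Both induced arrays lay below both controls in 16 of the 30 probe sets, against 18.2% of all probe sets, and above them in 2, against 20.9%. The probe sets of a gene are not independent of each other, and Lasp1 and Ran together supplied 14 of the 30. Of the 16 separated lower, 7 measured Lasp1 and 5 Ran. With 2 arrays a group, an exact permutation test of one value cannot go below p = 0.333.

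**Figure D1:**
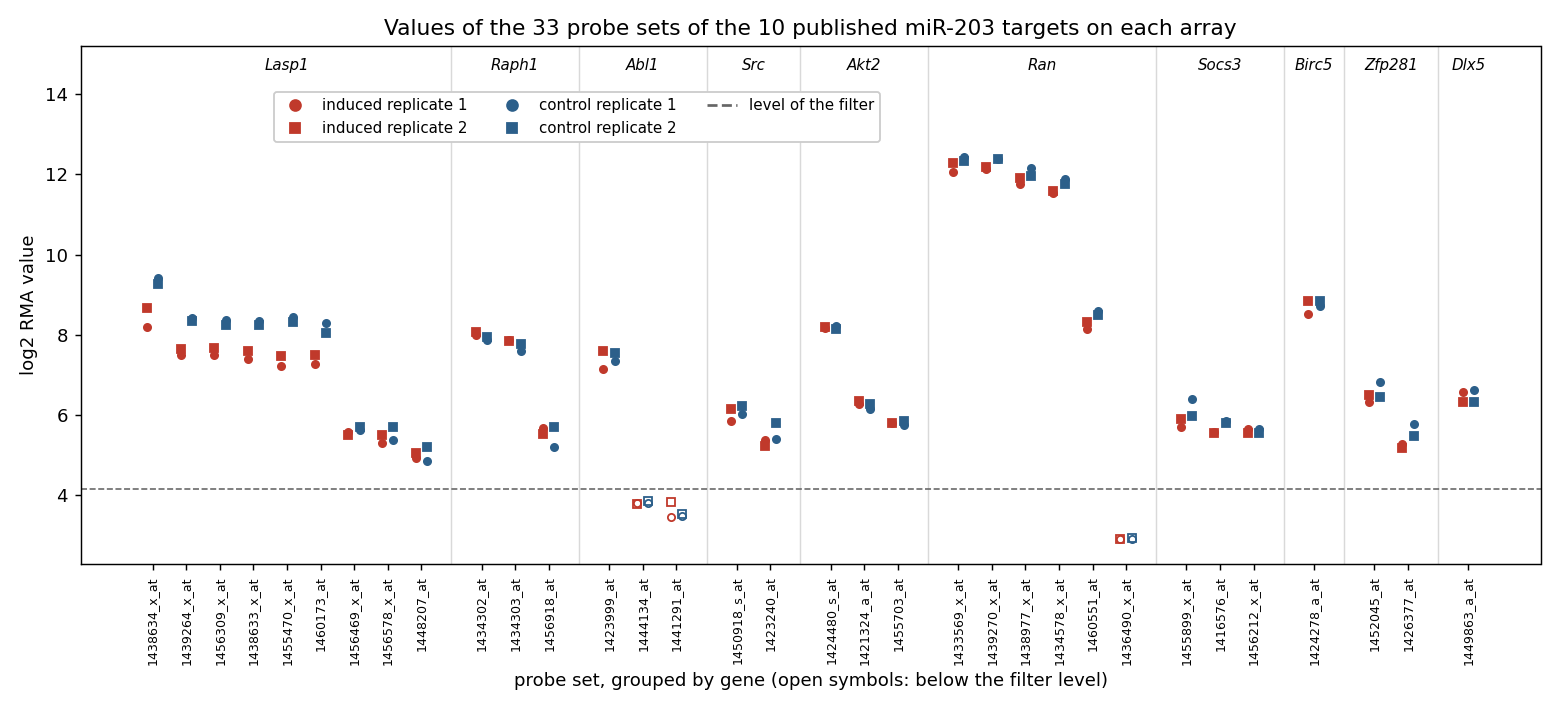
Log2 RMA value (vertical axis) of each of the 33 probe sets on the 4 arrays, grouped by gene; red, left, are the 2 induced arrays and blue, right, the 2 controls, and the dashed line is the filter level of 4.17. The 6 brighter Lasp1 probe sets show red symbols well below blue ones, and the symbols of most other probe sets lie close together.

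Lasp1, the LIM and SH3 domain protein that binds actin filaments and the focal adhesion protein zyxin, had the largest differences of the 10 genes. Its 9 probe sets fell into a brighter and a dimmer set, a division made after the values were seen. In the 6 brighter ones (mean log2 values of 7.78 to 8.89) the induced arrays were 1.65-fold to 2.06-fold lower than the controls. Probe set 1455470_x_at had log2 values of 7.22 and 7.46 in induced arrays, against 8.45 and 8.32 in controls, a difference of -1.04 ± 0.12 (SE, limma, n = 2 and 2 arrays, adjusted p = 0.158). The groups were far from overlapping, and only 12 of the 27022 probe sets had a lower difference. Probe set 1438634_x_at, the brightest for this gene, had 8.21 and 8.66 in induced arrays, against 9.42 and 9.28 in controls, a difference of -0.91 ± 0.17 (adjusted p = 0.205). Here the induced arrays differed from each other by more than the controls did, and still lay below both.

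The remaining 4 bright probe sets gave the same picture. Probe set 1439264_x_at had 7.50 and 7.66 in induced arrays, against 8.42 and 8.36 in controls (difference -0.81 ± 0.11). Probe set 1438633_x_at had 7.41 and 7.59, against 8.34 and 8.23 in controls (-0.79 ± 0.11), and 1456309_x_at had 7.50 and 7.67, against 8.36 and 8.25 (-0.72 ± 0.11). Probe set 1460173_at, the only 1 of the 6 without the _x_at ending, had 7.29 and 7.50 in induced arrays, against 8.29 and 8.04 in controls (-0.77 ± 0.13). The ending marks probe sets with probes that can also bind similar sequences, and the difference in 1460173_at was within the range of the other 5. In every one of the 6 the lowest control exceeded the highest induced array, by 0.54 to 0.86, and induced replicate 1 was the lower of the induced arrays. Without induced replicate 1 the 6 differences were -0.92 to -0.64, and without induced replicate 2 they were -1.17 to -0.80, each time with the lone array assumed to vary like the control group. Adjusted p-values of the 6 ran from 0.158 to 0.205 in limma; when the prior for the spread was fitted as a trend on brightness and made robust to outliers, 4 of the 6 passed (adjusted p = 0.0186 to 0.0550 over the 6), in a fit that called 0.466% of all probe sets.

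The 3 dimmer Lasp1 probe sets did not show this difference. Probe set 1456469_x_at had 5.59 and 5.50 in induced arrays, against 5.64 and 5.71 in controls (-0.13 ± 0.10), with the induced arrays just below both controls. Probe set 1456578_x_at had 5.30 and 5.51, against 5.37 and 5.71 in controls (-0.13 ± 0.15), and 1448207_at had 4.93 and 5.05, against 4.87 and 5.20 (-0.04 ± 0.14), and in both the groups overlapped. The last was annotated to the same source sequence as 1460173_at, which differed by -0.77. Over all 9 probe sets the differences spanned 1.003 on the log2 scale, a span reached by 11 of the 5889 genes with at least 2 tested probe sets, where the median span was 0.15. A span widens with the number of probe sets, and most of these genes had fewer than 6, so the comparison is not like for like. Of the 133 genes with at least 6 tested probe sets, Lasp1 alone had 6 with a difference of -0.7 or lower, a size that 0.359% of all probe sets reached. The count and the size were both set after the Lasp1 values were seen, so Lasp1 met them by construction. The mean of the 9 probe sets differed by -0.59 ± 0.10 (adjusted p = 0.141 over genes).

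**Figure D2:**
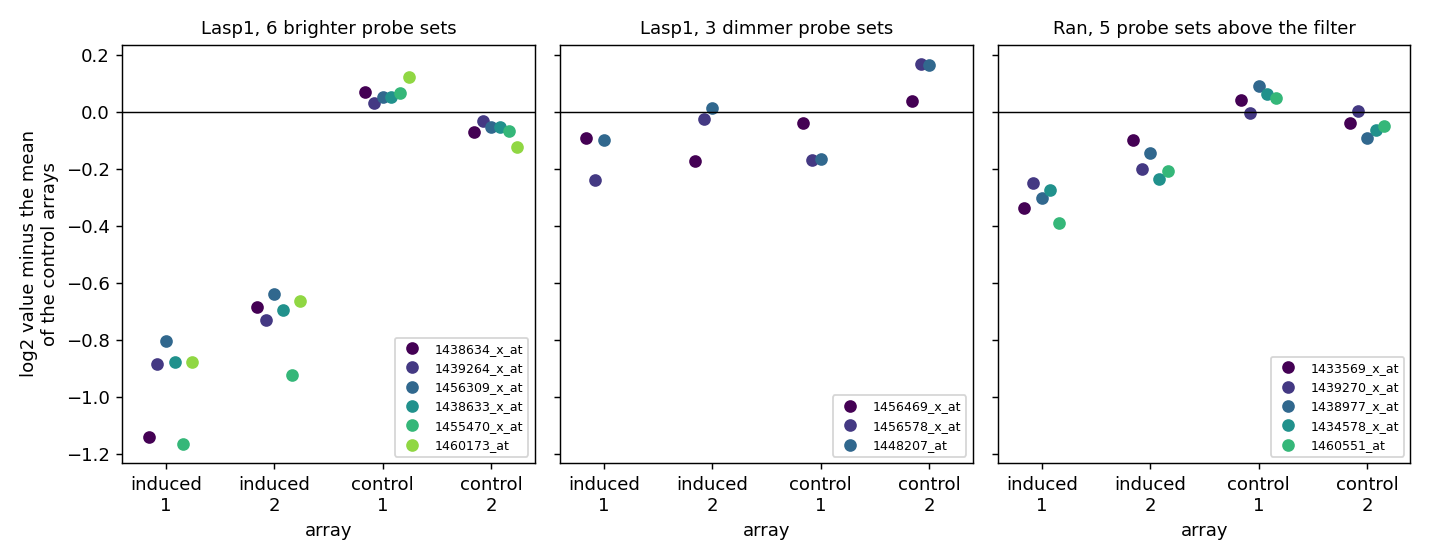
Log2 value minus the mean of the 2 control arrays (vertical axis) on each array for the 6 brighter Lasp1 probe sets, the 3 dimmer ones and the 5 tested Ran probe sets; each colour is a probe set. The brighter Lasp1 probe sets sit below -0.6 on both induced arrays, the dimmer ones near 0, and the Ran probe sets between -0.39 and -0.10 on induced arrays.

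Raph1, or lamellipodin, carries Ena/VASP proteins to the leading edge of moving cells, and its mean was higher in the induced arrays in all 3 probe sets. Probe set 1434302_at had 7.995 and 8.06 in induced arrays, against 7.88 and 7.95 in controls (0.12 ± 0.10, adjusted p = 0.768). Probe set 1434303_at, annotated to the same source sequence, had 7.88 and 7.84, against 7.59 and 7.76 in controls (0.19 ± 0.11, adjusted p = 0.636). In these 2 the induced arrays lay above both controls by small margins. The dimmer 1456918_at had 5.67 and 5.52 in induced arrays, against 5.21 and 5.70 in controls (0.14 ± 0.18), and overlapped. The lower ends of the 95% intervals were -0.12, -0.08 and -0.29, all smaller in size than the Lasp1 differences of the brighter probe sets.

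The kinase genes gave small or uncertain differences. Abl1, a non-receptor tyrosine kinase that acts on the actin cytoskeleton, had 7.15 and 7.59 in induced arrays, against 7.34 and 7.54 in controls, in its only tested probe set 1423999_at (-0.07 ± 0.17, 95% interval -0.49 to 0.35). The induced arrays enclosed both controls, and the interval leaves room for changes in either direction; without induced replicate 1 the difference was 0.15. Its other 2 probe sets lay between 3.45 and 3.85 on every array, below the filter level. Src, the kinase of focal adhesions and growth factor receptors, had 5.84 and 6.15 in induced arrays, against 6.03 and 6.23 in controls, in 1450918_s_at (-0.13 ± 0.14, and 0.02 without induced replicate 1), and these overlapped. Its probe set 1423240_at, annotated to the same source sequence, had 5.39 and 5.22 in induced arrays, against 5.40 and 5.79 in controls (-0.29 ± 0.16, adjusted p = 0.613), with the highest induced and the lowest control array almost level. Akt2, a serine/threonine kinase of insulin signalling, had 8.18 and 8.19 in induced arrays, against 8.22 and 8.13 in controls, in 1424480_s_at (0.01 ± 0.10, 95% interval -0.23 to 0.25). Its other probe sets had 6.28 and 6.34, against 6.15 and 6.28 in controls (1421324_a_at, 0.09 ± 0.10), and 5.80 and 5.80, against 5.75 and 5.86 (1455703_at, -0.01 ± 0.10). None of the 3 separated the groups, and the lowest end of their intervals was -0.25, which a difference of the size seen in the brighter Lasp1 probe sets exceeds.

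Ran, the small GTPase that gives nuclear import and export their direction and that exportin-5 needs to carry precursor microRNAs out of the nucleus, averaged lower in the induced arrays in every tested probe set. Probe set 1433569_x_at had 12.05 and 12.28 in induced arrays, against 12.42 and 12.34 in controls (-0.22 ± 0.12, adjusted p = 0.615). Probe set 1439270_x_at had 12.14 and 12.18, against 12.38 and 12.39 in controls (-0.23 ± 0.09, adjusted p = 0.509), and 1438977_x_at had 11.76 and 11.92, against 12.15 and 11.97 (-0.22 ± 0.12). In these probe sets both induced arrays lay below both controls, by small margins. Probe set 1434578_x_at had 11.54 and 11.58 in induced arrays, against 11.88 and 11.75 in controls (-0.25 ± 0.10), and 1460551_at, without the _x_at ending, had 8.15 and 8.33, against 8.58 and 8.48 (-0.30 ± 0.11, adjusted p = 0.460). The 5 differences thus ran from -0.30 to -0.22, or 1.16-fold to 1.23-fold lower, with gaps of 0.05 to 0.20 between the groups, and 0 of the 5 passed in limma, 2 having an unadjusted p under 0.05. Of the 345 genes with at least 5 tested probe sets, 4 (1.16%) had every one of them separated in the lower direction, Ran among them. This criterion repeats the pattern of the 5 Ran probe sets, so that Ran met it is no separate evidence. Without induced replicate 1 the 5 differences were -0.23 to -0.10, and without induced replicate 2 they were -0.39 to -0.25. The sixth probe set, 1436490_x_at, had values of 2.91 and 2.91 in induced arrays and 2.90 and 2.93 in controls, below the filter level. Ran has near-identical copies in the mouse genome, so the _x_at probe sets may also read other transcripts.

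Socs3, the feedback inhibitor of cytokine receptors that signal through JAK kinases and STAT3, differed between probe sets. Probe set 1455899_x_at had 5.70 and 5.90 in induced arrays, against 6.39 and 5.99 in controls (-0.39 ± 0.16, adjusted p = 0.508), and the controls differed from each other by more than the gap between the groups. Without control replicate 1 this difference was -0.19, and without control replicate 2 it was -0.59. Probe set 1416576_at had 5.59 and 5.55, against 5.86 and 5.80 in controls (-0.26 ± 0.10, adjusted p = 0.459), a tight separation 1.19-fold in size. Probe set 1456212_x_at had 5.65 and 5.57, against 5.66 and 5.55 in controls (0.00 ± 0.10), with full overlap. All 3 were dim, with means of 5.60 to 5.99.

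Birc5, or survivin, a subunit of the chromosomal passenger complex of dividing cells and a member of the inhibitor of apoptosis family, had 8.53 and 8.84 in induced arrays, against 8.71 and 8.85 in controls (-0.09 ± 0.14, 95% interval -0.43 to 0.24). The groups overlapped, and the low value was that of induced replicate 1. Without that array the difference was 0.06. Of 12 mitosis genes listed beside it 11 were measured, and 10 of these averaged lower in induced arrays, where 50.4% of all genes did. In 6 the induced pair lay below the control pair, against 19.3% of all genes, and the median of the list was -0.24 (-0.05 without induced replicate 1). Bub1, a spindle checkpoint kinase, differed by -0.48 ± 0.14, Prc1, which bundles midzone microtubules, by -0.36 ± 0.11, and Cdk1 by -0.33 ± 0.13, none passing over all probe sets. Without induced replicate 1 these were -0.30, -0.27 and -0.17. Whether the lower mitosis values have a part in the Ran and Birc5 values was not tested.

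Of the transcription factors, Zfp281, a zinc finger protein that binds GC-rich promoters, had 5.27 and 5.18 in induced arrays, against 5.79 and 5.47 in controls, in 1426377_at (-0.40 ± 0.13, adjusted p = 0.414). The brighter 1452045_at, annotated to the same source sequence, had 6.32 and 6.50, against 6.82 and 6.46 in controls (-0.23 ± 0.15, adjusted p = 0.679). The first separated the groups and the second did not. In both, control replicate 1 was the high array, and without it the differences were -0.24 and -0.05. Dlx5, a homeobox factor of bone and branchial arches, had 6.57 and 6.32 in induced arrays, against 6.63 and 6.34 in controls (-0.04 ± 0.15, 95% interval -0.40 to 0.33), and overlapped fully.

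**Figure D3:**
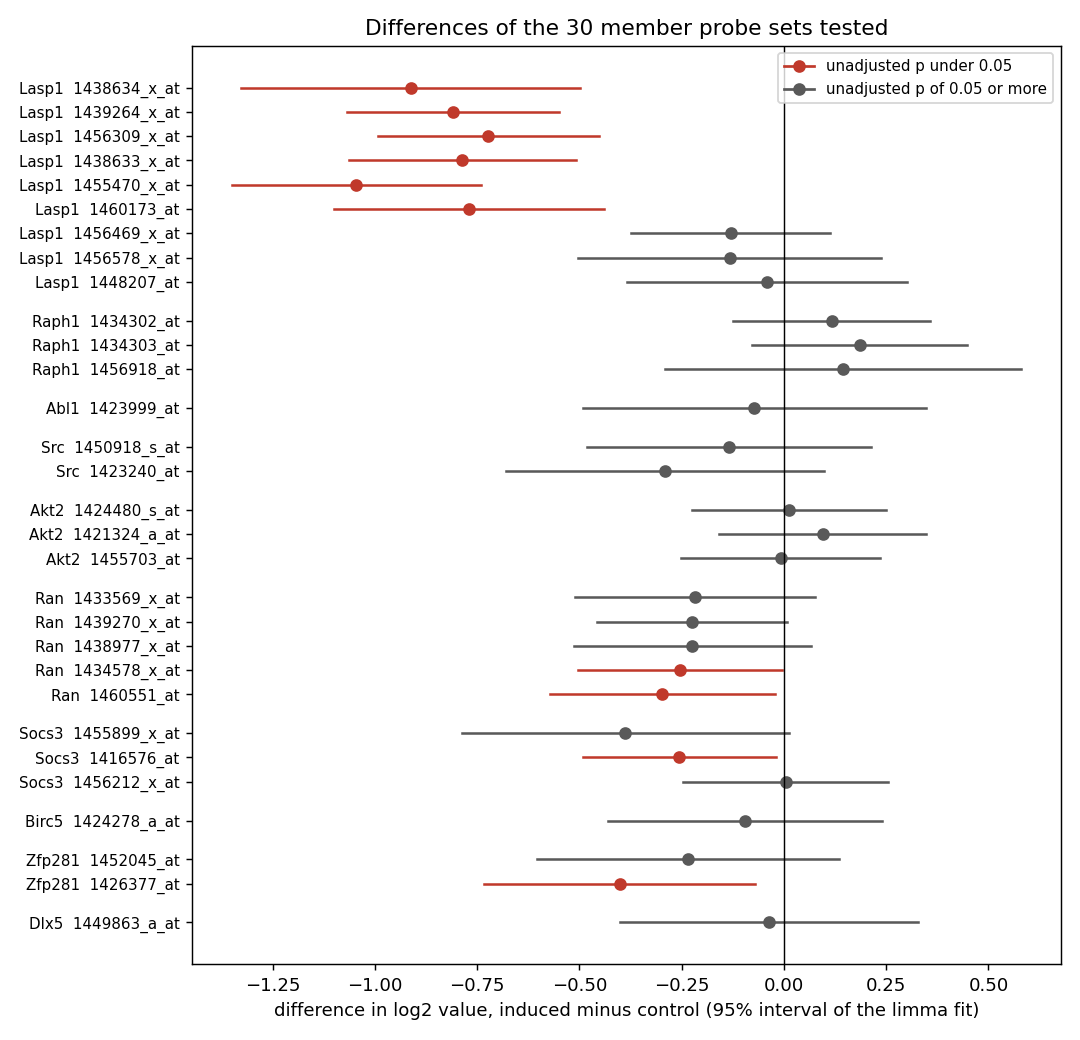
Difference in log2 value, induced minus control (horizontal axis), with the 95% interval of the limma fit for the 30 tested probe sets, grouped by gene; red marks an unadjusted p under 0.05. The 6 brighter Lasp1 intervals end at -0.44 or below, and all intervals of Raph1, Abl1, Src, Akt2, Birc5 and Dlx5 cross 0.

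Taking for each gene its brightest probe set, 8 of the 10 members averaged lower and 2 higher in the induced arrays, where 50.4% of all genes averaged lower. The median was -0.11, against -0.00 over the 13489 genes with a tested probe set. Abl1, Src, Birc5, Dlx5 and Akt2 turned sign when an array was left out. On these probe sets Lasp1, Socs3 and Ran were separated lower and Raph1 higher, against 19.3% and 20.1% of all genes. Over the 30 probe sets, 24 of which averaged lower against 49.3% of all probe sets, the median was -0.22 and without those of Lasp1 -0.13, against 0.00 over all 27022. In the order of the brightest probe sets, Lasp1 (-0.91) was followed by Socs3 (-0.39), Zfp281 (-0.23), Ran (-0.22), Src (-0.13), Birc5 (-0.09), Abl1 (-0.07), Dlx5 (-0.04), Akt2 (0.01) and Raph1 (0.12). From Socs3 on, neighbours in this order differed by less than the sum of their standard errors, and Lasp1 differed from Socs3 by more than that.

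Of the listed genes of the pathways around the members 0 passed in limma, as did 0% of all genes tested on their brightest probe set. With the robust prior, which called 81 genes, 0 of the listed genes passed as well. At an unadjusted p under 0.05, 5.23% of all genes were lower and 4.40% higher, and both induced arrays lay below both controls in 19.3% and above them in 20.1%. Among 6 measured genes that resemble or bind Lasp1 the median was -0.01, with 2 separated lower and 2 higher. Lpp, a zyxin relative, had 8.61 and 8.56 in induced arrays, against 8.95 and 9.00 in controls (-0.39 ± 0.09). However, 3 of its 7 other probe sets had the opposite sign, and the 7 ran from -0.65 to 0.59. Vasp, which elongates actin filaments and binds both Lasp1 and lamellipodin, had 8.81 and 8.76, against 9.21 and 9.00 in controls (-0.32 ± 0.11). Palladin (Palld), an actin cross-linker, differed by 0.39 ± 0.14, the higher direction.

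In the lists around lamellipodin, Abl and Src, 6 of 10, 6 of 8 and 7 of 9 measured genes averaged higher in induced arrays. Of all genes 50.4% averaged lower, 19.3% were separated lower and 20.1% higher. Of 10 measured genes of the Ena/VASP and WAVE group 2 were separated lower and 3 higher (median 0.04), with Apbb1ip, the paralog of lamellipodin, at 0.20 ± 0.10 and Wasf2, a WAVE subunit, at 0.16 ± 0.10. Vasp, given above, is counted in this list too (-0.32 ± 0.11). It was the only gene of the list with an unadjusted p under 0.05 in limma. Of 8 Abl kinase and adaptor genes 1 was separated lower and 3 higher (median 0.15). The adaptor Crk differed by -0.24 ± 0.10, with its 3 other probe sets also lower, and Bcr and Grb2 by 0.26 ± 0.10 and 0.22 ± 0.11, each with 1 other probe set of opposite sign. Of 9 Src family and focal adhesion genes 1 was separated lower and 5 higher (median 0.09). The adhesion scaffold paxillin (Pxn) had 7.54 and 7.67 in induced arrays, against 7.99 and 8.04 in controls (-0.41 ± 0.10), and its second probe set differed by -0.29. The Src family kinase Fyn had 6.92 and 6.83, against 6.51 and 6.48 in controls (0.38 ± 0.10), and Csk, the kinase that inhibits Src, differed by 0.20 ± 0.10.

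In the PI3K and Akt list 12 of 13 measured genes averaged higher in induced arrays, where 50.4% of all genes averaged lower. In this list 5 were separated higher, against 20.1% of all genes, and 0 had an unadjusted p under 0.05 (median 0.07). The highest statistics belonged to the Akt phosphatase Phlpp2 (0.24 ± 0.10) and the PI3K catalytic subunits Pik3ca (0.23 ± 0.11) and Pik3cb (0.21 ± 0.12). In the Ran cycle list, which holds its regulators and the transport receptors that bind it, 10 of 12 measured genes averaged lower, against 50.4% of all genes. Separated in that direction were 5, against 19.3% of all genes. The median of the list was -0.16, which was -0.06 without induced replicate 1 and -0.31 without induced replicate 2. Cse1l, the exportin that returns importin alpha to the cytoplasm, had 9.28 and 9.37 in induced arrays, against 9.84 and 9.66 in controls (-0.43 ± 0.11). Tnpo1, or transportin, differed by -0.47 ± 0.11, with its only other probe set at 0.10. Ranbp2, a nucleoporin, differed by -0.26 ± 0.13, with 2 of 3 other probe sets of opposite sign and the 3 running from -0.08 to 0.42.

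Of 15 SOCS and JAK-STAT genes 1 was separated lower and 5 higher (median 0.01), against 19.3% and 20.1% of all genes. The shared receptor subunit Il6st differed by 0.21 ± 0.09, Socs6 by 0.27 ± 0.12 and the kinase Tyk2 by 0.26 ± 0.12. Of their other probe sets, 1 of 3 for Il6st and 1 of 2 for Socs6 had the opposite sign. Of 9 genes of the chromosomal passenger complex and the apoptosis inhibitors 2 were separated lower and 0 higher (median -0.05). Diablo, the mitochondrial antagonist of apoptosis inhibitors, had 8.68 and 8.57 in induced arrays, against 9.04 and 8.95 in controls (-0.37 ± 0.10). The passenger kinase Aurkb had 6.44 and 6.98, against 7.14 and 7.14 in controls (-0.43 ± 0.18). Without induced replicate 1 the Aurkb difference was -0.16, and without induced replicate 2 it was -0.70. The scaffold Incenp differed by -0.10 ± 0.16 with overlap, and its 2 other tested probe sets by -0.32 and -0.29.

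Zfp148, the closest relative of Zfp281, had 7.67 and 7.85 in induced arrays, against 8.06 and 7.95 in controls (-0.25 ± 0.11), and its 5 other tested probe sets were lower too, by values from -0.64 to -0.22. Of the 12 genes listed with it, the others being subunits of the NuRD remodelling complex, 3 were separated lower and 1 higher (median -0.08). The shares over all genes were 19.3% and 20.1%. The subunit Mta1 differed by -0.31 ± 0.12, with its other probe set of opposite sign, and Chd4 by 0.18 ± 0.10. Beside Dlx5, 4 of the 7 measured genes of the Dlx family and its partners were separated higher and 0 lower, against 20.1% and 19.3% of all genes. The median of the list was 0.34, which was 0.16 without induced replicate 2 and 0.22 without control replicate 1. Msx2, a homeobox factor of the hair matrix, had 7.33 and 7.70 in induced arrays, against 6.58 and 7.05 in controls (0.70 ± 0.20). Dlx3, a factor of hair and epidermal differentiation, had 8.53 and 8.78, against 8.15 and 8.35 in controls (0.41 ± 0.13), and Dlx4 differed by 0.34 ± 0.12. Hair follicle markers, of which Msx2 is one, moved the same way, and their part in these values was not tested.

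**Figure D4:**
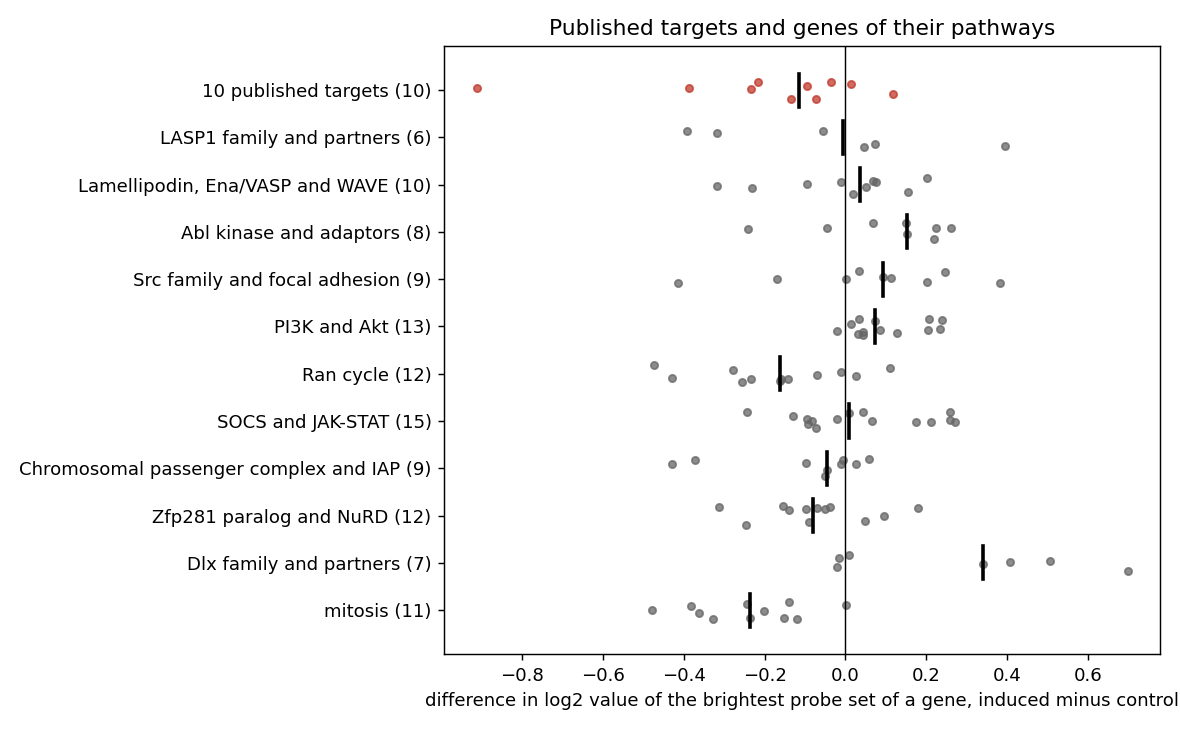
Difference in log2 value of the brightest tested probe set of each gene, induced minus control (horizontal axis), for the 10 published targets and 11 lists of related genes; points are genes, black bars medians and numbers in brackets the genes measured. Lasp1 is the isolated point at -0.91, the Ran cycle and mitosis lists lie mostly below 0 and the Dlx list mostly above.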

How the data were processed

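RNA of the 4 samples was labelled with biotin for Affymetrix arrays, 1 array a sample, per the labels' protocols. The authors deposited log2 values made with RMA (version not given), per the submitters' processing notes. RMA corrects background, quantile normalizes between arrays and summarises each probe set on the log2 scale, which hides any difference in total RNA per cell. The chip definition and genome build are not given in the sources used here. The table held no column of other samples.

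The 64 control probe sets were left out. Genes came from the platform annotation: of the other 45037 probe sets 34945 carried 1 gene, 932 several and 9160 were not listed. Current symbols came from the RefSeq gene table of assembly GRCm38.p6 for 34741 of the 34945, all 33 member probe sets included. Probe sets whose mean over the 4 arrays reached the 40th percentile were tested with limma 3.58.1 in R 4.3.3 (lmFit, eBayes, two-sided, Benjamini-Hochberg adjusted p over the 27022). There were 2 residual and 3.82 prior degrees of freedom and a prior standard deviation of 0.115. The fit was tested on simulated data. The number of arrays limits the precision.

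Named were all 10 members and up to 3 genes of each related list with the largest absolute statistic; Xist and Eif2s3y were fixed by name. A gene is represented by its brightest tested probe set. The members and lists were chosen with earlier results of these data known, and no set test was run. Both groups carry replicate numbers 1 and 2, which the labels tie to no litter; same-numbered arrays deviated from their group means with a correlation of -0.10, so the numbers were not taken as pairs. Alternatives were 2 other filters (none, and the 60th percentile), a repeat of quantile normalization or median centring, eBayes with trend and robust, averaging of a gene's probe sets, a threshold of 0.1, the replicate number as a block, and omission of each array in turn. Matches to the miR-203 seed in untranslated regions were planned but not analysed here, for want of those sequences.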

Additional observations from a re-analysis of the deposited data

Results flagged for a closer look

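Induced replicate 1 carried signal of a Y-linked gene that none of the comparisons of the targets uses. Its log2 value for Eif2s3y was 9.38, while the control arrays had 2.82 and 2.52.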

How the results depend on the processing

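No member probe set passed in the filter, normalization, threshold, replicate block or leave-one-array-out alternatives; with eBayes trend and robust 4 did, all of Lasp1, among 126 over the array. Over all probe sets the count was 0 to 6 when an array was left out, the lone array being assumed to vary like the other group, and 0 with the replicate block. The block used the replicate number and left the median of the member probe sets at -0.22; a block with crossed numbers, added after the data were seen, also gave 0 calls. When an array was left out the median was -0.26 to -0.16 and the separated probe sets numbered 21 to 26, a lone array being easier to separate. Leaving out Lasp1, also added later, left 11 of 21 separated, 9 lower and 2 higher, against 18.2% and 20.9% of all probe sets. Ran alone supplied 5 of these 9.

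Lasp1, Raph1, Ran, Socs3 and Zfp281 kept their direction in every alternative on their brightest probe set, Lasp1 between -1.14 and -0.68 without an array. The direction turned when an array was left out for Abl1 (-0.29 to 0.15), Akt2 (-0.029 to 0.054), Dlx5 (-0.18 to 0.11), Src (-0.29 to 0.017), Birc5 (-0.25 to 0.059) and Incenp (-0.31 to 0.11), and for Akt2 also with a second quantile normalization (-0.00016). With a gene's probe sets averaged it turned for Grb2 (-0.0058) and Ranbp2 (0.024), and the medians of the Abl and JAK-STAT lists were 0.067 and 0.062.

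Without an array the list medians were 0.087 to 0.17 for Abl, -0.13 to -0.0015 for the passenger complex and apoptosis inhibitors, -0.074 to 0.0027 for Lasp1 partners, -0.0051 to 0.088 for Ena/VASP and WAVE, -0.31 to -0.065 for the Ran cycle, -0.010 to 0.064 for JAK-STAT, -0.15 to -0.012 for NuRD, 0.16 to 0.46 for the Dlx family, 0.043 to 0.12 for PI3K and Akt, 0.078 to 0.12 for Src and -0.42 to -0.051 for mitosis. The causes were not tested. With 2 arrays a group, differences of the size seen in Ran are near the limit of what the spread allows. The 95% intervals of 1434578_x_at (-0.50 to -0.005) and 1460551_at (-0.57 to -0.02) ended just below 0. Those of the other tested Ran probe sets crossed 0, with a highest end of 0.08.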
